A study of Homo sapiens with 22 samples.

Results

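FLT3 and 9 genes that report the activity of its signalling pathways were followed in 2 human acute myeloid leukemia cell lines treated with a degrader of FTO. The 10 genes, FLT3, STAT5A, CISH, SOCS2, PIM1, PIM2, DUSP6, SPRY2, SPRED1 and ETV5, were taken by symbol from tables of 20411 protein-coding genes, and each was found once in both tables. MOLM-13 is an acute myeloid leukemia line that carries an internal tandem duplication of FLT3, and NB4 is an acute promyelocytic leukemia line. Cells received 2 μM FP54, a small molecule made to degrade the m6A demethylase FTO, or the solvent DMSO, for 48 h, and mRNA was sequenced from 3 libraries for each line and treatment. DMSO was the control of both lines, the labels name no further genetic change in any group, and each line is a single cultured line without normal blood cells beside it. The labels do not say whether the 3 libraries of a group came from separate cultures, so p-values measure only the spread between these libraries.

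FLT3 is a receptor tyrosine kinase of early blood progenitors that is switched on by its ligand. The internal tandem duplication makes the receptor active without ligand and, unlike the normal receptor, drives strong phosphorylation of the transcription factor STAT5. STAT5 raises CISH, SOCS2, PIM1 and PIM2, while the RAS and ERK branch raises DUSP6, SPRY2, SPRED1 and ETV5, many of which feed back to damp the same pathway. An mRNA level of these genes reads the pathways only indirectly, since each gene also has other inputs.

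CISH was the one gene of the 10 whose promoter window held the STAT site motif TTCNNNGAA, which is its own reverse complement, and the motif occurred there 4 times. The windows, from 250 bases before to 50 bases after the transcription start, came from RefSeq on GRCh38.p14 and covered 8 of the 10 genes with 12 windows. SOCS2 and ETV5 had no window. The motif was found in 7.66% of 35116 windows of the same length, and 7 windows (0.0199%) held it 4 times or more. The 4 matches in CISH are shown because CISH had the largest response below among the STAT5 targets of the 10 genes. They lie in 2 pairs, 241 and 230 bases and then 129 and 112 bases before the start, on chromosome 3. The sequences read 5′ to 3′ on the minus strand, the strand of the gene, with the motif matches in capitals.
CISH distal pair, chr3:50611991-50612020: ccgttTTCCTGGAAagTTCTTGGAAatctg
CISH proximal pair, chr3:50611876-50611905: ggTTCTAGGAAgacgctgcTTCCGGGAAgg
A match to these letters describes the sequence and is not evidence of binding in these cells, and a window without a match says only that these letters are not in it.

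The values were RPKM, reads scaled by transcript length and by library total, which can be compared between genes within a library. The 2 tables were normalized separately, so levels of the 2 lines are set side by side with no test. All 120 values of the 10 genes corresponded to whole reads within 0.05 of a read when multiplied by the exon length. The reads on genes ranged from 16302939 to 17351805 in the MOLM-13 DMSO libraries and from 5833284 to 19196661 in the MOLM-13 FP54 libraries. In NB4 they ranged from 20645208 to 22331811 with DMSO and from 10594715 to 13069226 with FP54. The lowest count behind any value of the 10 genes in MOLM-13 was 38 reads, for SPRY2 in FP54 replicate 2, the shallowest library. The 9 general myeloid markers all reached a mean of 1 RPKM in both lines and treatments, and the erythroid marker list summed to at most 0.235 RPKM in any library. Not every list of other cell types was near 0. The 8 epithelial and fibroblast markers summed to between 20.3 and 22.1 RPKM with DMSO and between 23.2 and 25.5 RPKM with FP54 in NB4. In MOLM-13 they summed to between 7.20 and 9.43 RPKM with DMSO and between 5.66 and 7.93 RPKM with FP54. FTO itself was at 1.01 ± 0.0767 RPKM with DMSO and 1.01 ± 0.118 RPKM with FP54 in MOLM-13, and at 2.73 ± 0.180 and 2.03 ± 0.0782 RPKM in NB4 (SD, n = 3). FP54 acts on the protein.

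With DMSO the lines differed in which branch of the 10 genes was high. In MOLM-13 the receptor and the STAT5 targets led. FLT3 was highest at 74.0 ± 16.3 RPKM (SD, n = 3), followed by PIM1 at 68.3 ± 14.8, CISH at 19.6 ± 2.04, PIM2 at 16.1 ± 1.01 and SOCS2 at 15.7 ± 1.17 RPKM. ETV5 at 9.35 ± 0.199, STAT5A at 7.92 ± 0.0885, DUSP6 at 6.69 ± 0.437, SPRY2 at 3.13 ± 0.503 and SPRED1 at 2.33 ± 0.233 RPKM came below them. Neighbours in this order did not overlap in their library values, except FLT3 with PIM1 and PIM2 with SOCS2.

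In NB4 the order was led by DUSP6 at 51.8 ± 5.55 RPKM (SD, n = 3), STAT5A at 18.3 ± 1.27 and ETV5 at 14.7 ± 2.36 RPKM. PIM2 followed at 14.2 ± 1.11, SPRY2 at 7.25 ± 1.11, PIM1 at 7.03 ± 1.01 and FLT3 at 5.67 ± 0.477 RPKM. CISH at 4.59 ± 0.446, SPRED1 at 3.58 ± 0.552 and SOCS2 at 1.96 ± 0.126 RPKM were lowest. The neighbours that overlapped were ETV5 with PIM2, SPRY2 with PIM1, and PIM1 with FLT3. Set side by side, mean levels with DMSO were higher in MOLM-13 for FLT3 (13.1 times), PIM1 (9.72 times), SOCS2 (7.98 times), CISH (4.26 times) and PIM2 (1.14 times). They were higher in NB4 for DUSP6 (7.75 times), STAT5A (2.31 times), SPRY2 (2.31 times), ETV5 (1.58 times) and SPRED1 (1.54 times). The library values of the lines did not overlap for any of the 10 genes. How many of all 20411 genes also separated between the lines was not counted, so this is not read as particular to the 10. Nor do these genes stand for every gene of a branch. With DMSO, CCND2, a further STAT5 target, was at 12.7 RPKM in MOLM-13 and 23.8 RPKM in NB4. EGR1, a further ERK output gene, was at 15.4 RPKM in MOLM-13 and 5.86 RPKM in NB4. How many further genes went either way was not counted. The receptor ranked between 394 and 614 among the 20411 genes in the MOLM-13 DMSO libraries and between 5651 and 5962 in those of NB4.

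**Figure D1:**
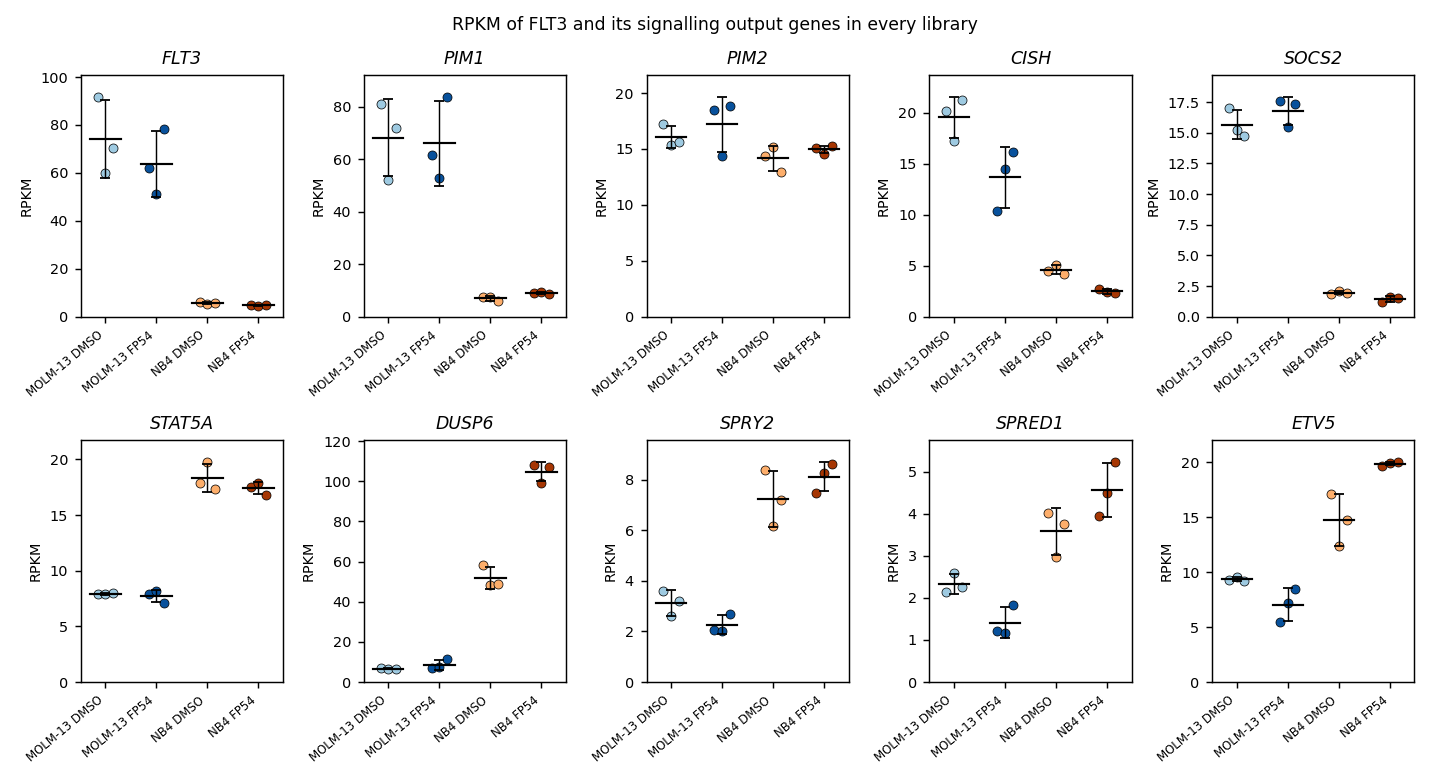
RPKM of each of the 10 genes in the 12 libraries, 1 panel per gene with its own linear axis from 0, where points are libraries, horizontal lines are group means and bars are SD over 3 libraries. FLT3, PIM1, CISH and SOCS2 sat higher in MOLM-13, DUSP6 sat higher in NB4, and DUSP6 in NB4 rose from 51.8 to 105 RPKM with FP54.

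FP54 was then compared with DMSO within each line, on log2(RPKM + 0.1) with limma, for genes with a mean of at least 1 RPKM over the 6 libraries of the line, a filter that all 10 genes passed in both lines. The cutoff was taken from the methods of the paper. A call needed a p under 0.01 and a change of 0.5 or more on the log2 scale, and Benjamini-Hochberg adjusted p-values over all tested genes are given beside it. In MOLM-13, 1 of the 10 genes was called lower, SPRED1, where 9.04% of 9710 tested genes were, and none was called higher, where 9.3% were. None of the 10 passed an unadjusted p of 0.05 in the higher direction either, 4 did in the lower direction, and limma-voom on the recovered reads called 2 lower and 0 higher. The shares of all tested genes at an unadjusted p of 0.05 and with limma-voom were not counted, here or for the lists below. These counts are therefore not read as a direction of the 10 genes. At the cutoff, 18.3% of all tested genes in MOLM-13 were called in either direction. In NB4, CISH was called lower, where 10.7% of 9853 tested genes were, and DUSP6 was called higher, where 18.6% were, so that 2 of the 10 were called against 29.3% of all. Of all calls in NB4, 63.6% were higher, a share that was 37.1% with median-ratio scaling and 48.4% with quantile normalization. With an adjusted p below 0.05 in place of the unadjusted one the counts were 1 lower (8.95% of all) and 0 higher (9.22%) in MOLM-13, and 1 lower (10.7%) and 1 higher (19.1%) in NB4. At an adjusted p below 0.05 and any size of change, 1 gene passed in MOLM-13 (19.2% of all) and 5 passed in NB4 (51.8%). In MOLM-13, 7 estimates were below 0 (49.7% of all) and 3 above (50.3%), and in NB4, 4 were below (44.2%) and 6 above (55.8%). The libraries of the 2 treatments did not overlap for 3 of the 10 genes in MOLM-13, against 37.1% of all tested genes, and for 6 of the 10 in NB4, against 60.5%. The counts of called and of separated genes were thus near the background in both lines, and the results below concern single genes. With 3 libraries a group the smallest two-sided p of an exact permutation test is 0.1, so no such test is given. In RNA from whole cultures, a smaller share of cells that express a gene and less of its RNA per cell cannot be told apart.

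**Figure D2:**
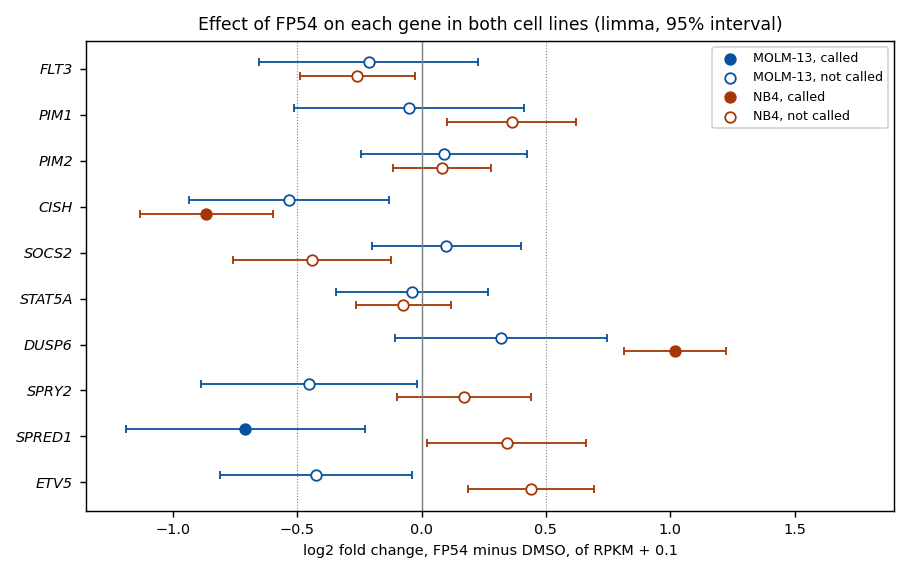
Log2 fold change (FP54 minus DMSO) of each of the 10 genes in MOLM-13 and NB4 from limma, where bars are 95% intervals, filled points passed the cutoff and dotted lines mark a size of 0.5. The 3 filled points are SPRED1 in MOLM-13 (-0.71) and CISH (-0.86) and DUSP6 (1.02) in NB4.

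The mRNA of the receptor did not pass the cutoff in either line. In MOLM-13, FLT3 was at 91.8, 59.8 and 70.5 RPKM in DMSO replicates 1 to 3 and at 61.9, 51.1 and 78.5 RPKM in FP54 replicates 1 to 3. The treatments overlapped, with DMSO replicate 1 standing highest and FP54 replicate 2 lowest. This gave a log2 fold change of -0.21 (95% interval -0.65 to 0.23, limma adjusted p = 0.474), an interval that does not exclude a decrease as large as its lower bound. In NB4, FLT3 was at 6.04, 5.13 and 5.84 RPKM with DMSO and at 4.83, 4.46 and 4.86 RPKM with FP54, on between 213 and 264 reads in the FP54 libraries. All 3 FP54 libraries were below all 3 DMSO libraries. The log2 fold change was -0.26 (95% interval -0.49 to -0.03, limma adjusted p = 0.0585), below the size of the cutoff. Over the alternatives this NB4 value ranged from -0.45 to -0.21, always under the size of the cutoff. Its limma adjusted p ranged from 0.00227 to 0.206, so whether it passed 0.05 depended on the processing. The effect in NB4 minus that in MOLM-13 was -0.05 (95% interval -0.55 to 0.46, adjusted p = 0.922), a wide interval that shows neither a difference nor equal effects. RPKM of the whole gene does not separate the duplicated from the normal allele.

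FLT3 maps to chromosome 13, 28003274 to 28100592 on the minus strand of hg38. Among 10713 genes tested in at least 1 line, the 5 whose centred log2 values lay nearest to those of FLT3 over the 12 libraries, by Euclidean distance, were EPX, PPP1R3C, DEPTOR, STARD4 and H3C6. EPX, which encodes eosinophil peroxidase, was nearest with a distance of 0.73, and its means were 60.3 and 48.9 RPKM with DMSO and FP54 in MOLM-13 and 4.75 and 3.22 RPKM in NB4. STARD4, a sterol carrier, was at a distance of 0.88, with means of 49.0 and 40.3 RPKM in MOLM-13 and 3.43 and 2.65 RPKM in NB4. DEPTOR, an mTOR-binding inhibitor, was at a distance of 0.83, with means of 7.84 and 7.45 RPKM in MOLM-13 and 0.58 and 0.59 RPKM in NB4. PPP1R3C at 0.78 and H3C6 at 0.89 were low, with means of at most 1.55 RPKM in any group. All 5 had higher means in MOLM-13 than in NB4 with both treatments, and they are given as a description.

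STAT5A, one of the 2 STAT5 transcription factors, was among the steadiest of the 10 genes. It ranged from 7.87 to 8.03 RPKM with DMSO and from 7.12 to 8.19 RPKM with FP54 in MOLM-13, and from 17.4 to 19.8 and from 16.8 to 17.9 RPKM in NB4. The treatments overlapped in both lines. The log2 fold change was -0.04 (95% interval -0.34 to 0.27, limma adjusted p = 0.868) in MOLM-13 and -0.07 (95% interval -0.26 to 0.12, adjusted p = 0.499) in NB4. STAT5A shares 415 exon bases with its neighbour STAT5B on the opposite strand, and the strand setting of the counting is not given in the sources used here. STAT5B had a log2 fold change of 0.09 in MOLM-13 (adjusted p = 0.679) and 0.48 in NB4 (adjusted p = 0.00185), just under the size of the cutoff.

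Among the STAT5 targets of the 10 genes, CISH had the lowest level relative to DMSO in both lines. CISH encodes an SH2 protein that is induced by STAT5 and limits cytokine receptor signalling. In NB4 it was at 4.51, 5.07 and 4.19 RPKM with DMSO and at 2.76, 2.38 and 2.28 RPKM with FP54. Every FP54 library was below every DMSO library, on between 140 and 151 reads against between 471 and 546. The mean with FP54 was 54.0% of that with DMSO, and the log2 fold change was -0.86 ± 0.12 (SE, limma adjusted p = 0.000216). The call was kept under every alternative that tested the gene, with log2 fold changes from -1.13 to -0.68, while a filter at a mean of 5 RPKM left CISH untested in NB4.

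In MOLM-13, CISH was at 20.2, 17.3 and 21.2 RPKM with DMSO and at 10.4, 14.5 and 16.1 RPKM with FP54. The treatments again did not overlap, and FP54 replicate 1 was lowest. The mean with FP54 was 69.9% of that with DMSO, and the log2 fold change of -0.53 (95% interval -0.93 to -0.13) missed the cutoff, with a limma adjusted p of 0.0637. It passed the cutoff with limma-voom on the recovered reads, where the log2 fold change was -0.56 (adjusted p = 0.0432), and without FP54 replicate 3, where it was -0.66 (adjusted p = 0.0416). Its adjusted p ranged from 0.0416 to 0.234 over the alternatives. The effects of the 2 lines differed by -0.33 (95% interval -0.81 to 0.15, adjusted p = 0.358), so a difference between the lines was not shown. CISH lies on the minus strand of chromosome 3, 50606489 to 50611774, and shares 218 exon bases with MAPKAPK3 on the opposite strand. MAPKAPK3 had a log2 fold change of -0.01 in MOLM-13 (adjusted p = 0.973) and -0.47 in NB4 (adjusted p = 0.000547), and its part in the CISH values was not tested.

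SOCS2, a further SH2 protein that restrains cytokine and growth hormone signalling, had opposite signs in the 2 lines. In NB4 it was low, at 1.88, 2.11 and 1.91 RPKM with DMSO and at 1.18, 1.62 and 1.49 RPKM with FP54. All FP54 libraries were below all DMSO libraries, but the log2 fold change of -0.44 (95% interval -0.76 to -0.12, limma adjusted p = 0.0245) missed the cutoff in size and p. It passed under median-ratio scaling (-0.63), quantile normalization (-0.88) and without FP54 replicate 2 (-0.53). In MOLM-13, SOCS2 ranged from 14.8 to 17.0 RPKM with DMSO and from 15.5 to 17.6 RPKM with FP54. These ranges overlapped, and the log2 fold change was 0.10 (95% interval -0.20 to 0.40, adjusted p = 0.634). The effect in NB4 minus that in MOLM-13 was -0.54 ± 0.19 (SE, limma adjusted p = 0.0701), which missed the threshold of 0.05, and it passed with no filter, with median-ratio scaling and with quantile normalization.

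The PIM kinases, serine/threonine kinases that promote survival and growth downstream of STAT5, were not called in either line. In MOLM-13, PIM1 was at 81.1, 52.1 and 71.8 RPKM with DMSO and at 61.5, 52.8 and 84.0 RPKM with FP54. The treatments overlapped almost fully, and the log2 fold change was -0.05 (95% interval -0.51 to 0.41, limma adjusted p = 0.883). In NB4, PIM1 was at 7.64, 7.59 and 5.86 RPKM with DMSO and at 8.97, 9.44 and 8.61 RPKM with FP54. All FP54 libraries were above all DMSO libraries there, with a log2 fold change of 0.36 (95% interval 0.10 to 0.62, adjusted p = 0.0241), under the size of the cutoff. Over the alternatives this NB4 value ranged from 0.17 to 0.43, with limma adjusted p from 0.00755 to 0.241. The effects of the 2 lines on PIM1 differed by 0.41 (adjusted p = 0.312). PIM2 ranged from 13.0 to 18.8 RPKM over all 12 libraries, with the smallest gap between the lines of the 10 genes. Its log2 fold changes were 0.09 in MOLM-13 (95% interval -0.24 to 0.42) and 0.08 in NB4 (95% interval -0.12 to 0.28), with overlapping treatments in both.

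On the ERK side, DUSP6, at 89347235 to 89352501 on chromosome 12, had the largest change of the 10 genes in either line. DUSP6 encodes a cytoplasmic phosphatase that removes the activating phosphates of ERK and is itself induced by ERK. In NB4 it was at 58.2, 48.2 and 49.1 RPKM with DMSO and at 108, 99.2 and 107 RPKM with FP54. Every FP54 library was far above every DMSO library, on at least 3966 reads in each. The mean with FP54 was 202% of that with DMSO, and the log2 fold change was 1.02 ± 0.09 (SE, limma adjusted p = 1.23e-05), with a range from 0.82 to 1.19 and no lost call over the alternatives.

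In MOLM-13, DUSP6 was at 7.19, 6.39 and 6.48 RPKM with DMSO and at 7.08, 7.29 and 11.3 RPKM with FP54. The treatments overlapped, and FP54 replicate 3 alone stood apart on the high side. The fitted log2 fold change was 0.32 (95% interval -0.11 to 0.74, limma adjusted p = 0.265). The effect in NB4 was larger than that in MOLM-13 by 0.70 ± 0.22 (SE, limma adjusted p = 0.0459). This difference was past the threshold only narrowly, and its adjusted p rose to between 0.0507 and 0.0841 with no filter, a filter at a mean of 5 RPKM, median-ratio scaling, the replicate number as a block or no intensity trend. It also missed the threshold in each of the 5 leave-one-out settings other than that without FP54 replicate 3, with adjusted p between 0.0837 and 0.199.

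SPRED1, a membrane adaptor that keeps RAF from being activated by RAS, was the 1 gene called in MOLM-13. It was at 2.14, 2.59 and 2.26 RPKM with DMSO and at 1.22, 1.17 and 1.83 RPKM with FP54. The treatments did not overlap, and the FP54 values rested on between 53 and 182 reads. The mean with FP54 was 60.6% of that with DMSO, and the log2 fold change was -0.71 ± 0.22 (SE, limma adjusted p = 0.0458). This call was not stable. A pseudocount of 1 brought the log2 fold change to -0.47, under the size of the cutoff, and the limma call was also lost with no filter (adjusted p = 0.159) and with the replicate number as a block (adjusted p = 0.0614). It was lost as well when DMSO replicate 1, 2 or 3 or FP54 replicate 1 or 2 was left out, with log2 fold changes from -0.76 to -0.60 and limma adjusted p from 0.0875 to 0.162. Without FP54 replicate 3 it was kept (-0.90, adjusted p = 0.0227).

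In NB4, SPRED1 was at 4.02, 2.96 and 3.75 RPKM with DMSO and at 3.95, 4.49 and 5.23 RPKM with FP54. FP54 replicate 1 lay within the DMSO range, and the log2 fold change was 0.34 (95% interval 0.02 to 0.66, limma adjusted p = 0.0689). The effect in NB4 was larger than that in MOLM-13 by 1.05 ± 0.26 (SE, limma adjusted p = 0.0134), so that the 2 lines differed although neither was firmly called by itself. Without DMSO replicate 2 of both lines the difference was 0.85 (adjusted p = 0.0519), and without FP54 replicate 2 of both lines it was 0.95 (adjusted p = 0.0605).

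ETV5, an ETS transcription factor induced by ERK, also moved apart between the lines. In MOLM-13 it was at 9.28, 9.58 and 9.20 RPKM with DMSO and at 5.48, 7.22 and 8.44 RPKM with FP54. In NB4 it was at 17.1, 12.4 and 14.8 RPKM with DMSO and at 19.7, 19.9 and 20.0 RPKM with FP54. The treatments did not overlap in either line, with FP54 below DMSO in MOLM-13 and above it in NB4. Log2 fold changes were -0.42 (95% interval -0.81 to -0.04, limma adjusted p = 0.11) in MOLM-13 and 0.44 (95% interval 0.19 to 0.69, adjusted p = 0.00812) in NB4, both under the size of the cutoff. The gene passed it in NB4 without DMSO replicate 1, where the log2 fold change was 0.55. Over the alternatives the NB4 value ranged from 0.24 to 0.55, with limma adjusted p from 0.00146 to 0.0652. The difference between the lines was 0.86 ± 0.21 (SE, limma adjusted p = 0.014). It missed the threshold without DMSO replicate 3 (0.88, adjusted p = 0.0601) and without FP54 replicate 1 (0.70, adjusted p = 0.0624) of both lines.

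SPRY2, a Sprouty protein that inhibits receptor signalling to RAS and ERK, had the same pair of signs without a call. In MOLM-13 it was at 3.59, 2.60 and 3.21 RPKM with DMSO and at 2.06, 2.03 and 2.69 RPKM with FP54, and in NB4 it ranged from 6.18 to 8.39 and from 7.49 to 8.62 RPKM. The treatments overlapped in both lines. The log2 fold change was -0.45 (95% interval -0.89 to -0.02, limma adjusted p = 0.127) in MOLM-13 and 0.17 (95% interval -0.10 to 0.44, adjusted p = 0.259) in NB4, and the NB4 value was -0.03 under median-ratio scaling. The difference between the lines was 0.63 (95% interval 0.14 to 1.11, adjusted p = 0.0826).

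Of the 10 genes, 3 thus differed between the lines in their FP54 effect, DUSP6, SPRED1 and ETV5, all more positive in NB4, where 10.5% of the 8849 genes tested in both lines were more positive and 14.2% differed in either direction. All 3 are on the ERK side, where DUSP6 passed only narrowly (limma adjusted p = 0.0459) and SPRY2 did not pass (adjusted p = 0.0826). For the receptor, STAT5A and the 4 STAT5 targets no difference between the lines passed the threshold. SOCS2 was nearest to it, with a difference of -0.54 (limma adjusted p = 0.0701). The 2 branches were not compared with each other by a test.

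**Figure D3:**
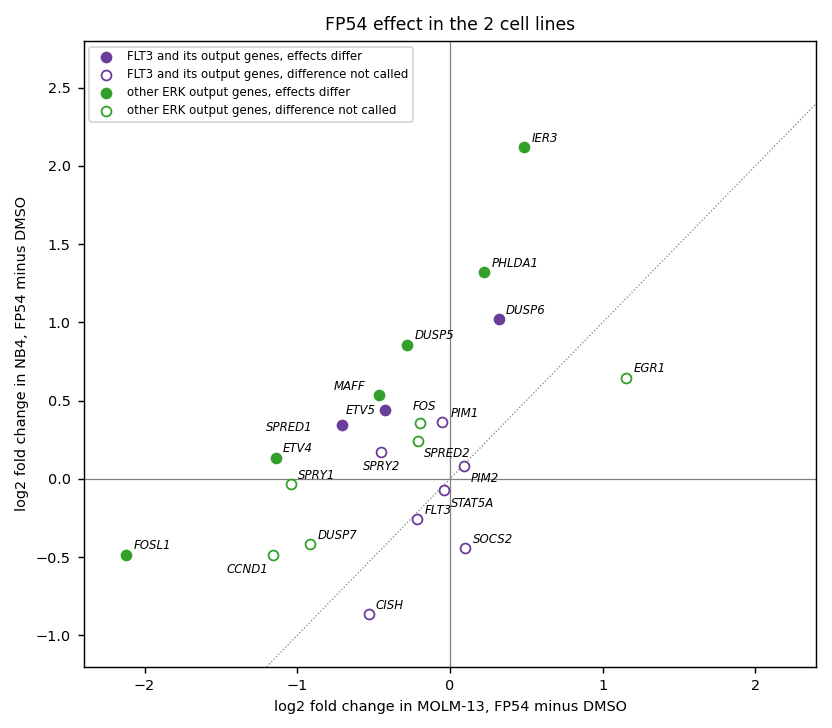
Log2 fold change with FP54 in MOLM-13 (horizontal) and in NB4 (vertical) for the 10 genes and for other ERK output genes tested in both lines, where the dotted line marks equal effects and filled points differed between the lines at an adjusted p below 0.05. The filled points, among them DUSP6, SPRED1 and ETV5, all lie above the dotted line.

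The same pathways were then read from 7 lists of other genes. Over these lists 27 calls were higher and 2 lower in NB4, and with median-ratio scaling 15 were higher and 7 lower. Over all tested genes, 18.6% were called higher and 10.7% lower in NB4, and 9.3% higher and 9.04% lower in MOLM-13. Of 19 further ERK output genes, 12 were tested in MOLM-13, where 5 were called lower and 1 higher, with a median log2 fold change of -0.37 against 0.00 over all tested genes. FOSL1, an AP-1 transcription factor, fell from 7.27 to 1.66 RPKM (log2 fold change -2.12, limma adjusted p = 0.00454). CCND1, which encodes cyclin D1, fell from 1.96 to 0.814 RPKM (-1.16, adjusted p = 0.0127), and ETV4, an ETS factor closely related to ETV5, fell from 5.78 to 2.57 RPKM (-1.14, adjusted p = 0.0067). SPRY1 (-1.04) and DUSP7 (-0.92), relatives of SPRY2 and DUSP6, were the other genes called lower. EGR1, an immediate early transcription factor, rose from 15.4 to 32.6 RPKM (1.15, adjusted p = 0.0415) and was the 1 gene of the list called higher in MOLM-13.

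In NB4, 15 genes of the same list were tested, and 0 were called lower and 5 higher, with a median log2 fold change of 0.36 against 0.07 over all tested genes. At an unadjusted limma p below 0.05, 3 were lower, and limma-voom called 0 lower. The 3 were CCND1 (log2 fold change -0.49, limma adjusted p = 0.00207), FOSL1 (-0.49, adjusted p = 0.00593) and DUSP7 (-0.42, adjusted p = 0.00913). Each was under the size of the cutoff in NB4, and each was called lower in MOLM-13. IER3, an immediate early gene linked to cell survival, rose from 0.478 to 2.22 RPKM (2.12), PHLDA1 from 2.77 to 7.02 RPKM (1.32) and DUSP5, a nuclear ERK phosphatase, from 2.50 to 4.61 RPKM (0.86). Of the 12 list genes tested in both lines, 6 differed between them, all more positive in NB4. Among them was ETV4 with a difference of 1.28 (limma, adjusted p = 0.00254). Over all 8849 genes tested in both lines, 14.2% differed and 10.5% were more positive in NB4.

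In the JAK and STAT list the median log2 fold change was 0.44 in MOLM-13 and 0.47 in NB4. Of 8 genes tested, 3 were called higher in MOLM-13 and 3 in NB4, and 0 were called lower in either, also with limma-voom and at an unadjusted p below 0.05. Among them in both lines were JAK1, a kinase of many cytokine receptors (0.79 and 0.69), and STAT2, a factor of the interferon response (0.51 and 0.92). JAK2, a kinase that many cytokine receptors use to activate STAT5, was at 0.08 in MOLM-13 and -0.06 in NB4 on the log2 scale and was not called. Of 15 other STAT5 targets, 2 were called lower and 1 higher of 13 tested in MOLM-13, and 1 lower and 3 higher of 9 in NB4. CCND2, which encodes cyclin D2, fell in both, from 12.7 to 7.28 RPKM in MOLM-13 (-0.80, limma adjusted p = 0.00711) and from 23.8 to 13.0 RPKM in NB4 (-0.86, adjusted p = 2.68e-05). LTB, a lymphotoxin, rose in both (0.85 and 0.84), and SOCS1, a feedback inhibitor of JAK kinases, rose in NB4 (0.90). OSM, a cytokine, was the other gene called lower in MOLM-13 (-0.59), with a limma adjusted p of 0.0512, and limma-voom called 1 gene of the list lower there.

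Of 15 other receptors and ligands, 6 were tested in each line, and 2 were called higher in MOLM-13 and 4 in NB4, with 0 lower, also with limma-voom and at an unadjusted p below 0.05. CSF1R, the macrophage colony-stimulating factor receptor and a close relative of FLT3, rose from 15.2 to 26.2 RPKM in MOLM-13 (0.77, limma adjusted p = 0.0149). CSF3R, the granulocyte colony-stimulating factor receptor, rose in both lines (0.61 and 0.69), and CSF2RB, the shared beta chain of the interleukin 3 receptor family, rose in NB4 (1.16), as did IL6ST (0.96). Of the receptor-proximal adaptors and kinases, 5 of 16 were called higher in MOLM-13 and 7 of 15 in NB4, and 0 lower, with 1 lower in each line at an unadjusted limma p below 0.05. GAB2 was called higher in both lines (0.61 in MOLM-13 and 1.01 in NB4). LYN, a SRC family kinase (0.61), and the ubiquitin ligase CBLB (0.73) rose in MOLM-13, and SH2B3 (0.82) in NB4. For LYN the effect in NB4 minus that in MOLM-13 was 0.06 (limma adjusted p = 0.873), so a difference between the lines was not shown.

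Of 13 genes of the RAS, RAF, MEK and ERK cascade itself, 1 was called lower and 1 higher in MOLM-13, and 0 lower and 2 higher in NB4, where 2 were lower at an unadjusted limma p below 0.05. HRAS fell in MOLM-13 from 8.78 to 4.63 RPKM (-0.93, limma adjusted p = 0.0308) and was at -0.41 in NB4 without a call (adjusted p = 0.0665). The scaffold KSR1 (1.36) and MAPK3, which encodes ERK1 (0.55), were called higher in NB4. MAPK3 was at 0.60 in MOLM-13 without a call (adjusted p = 0.0798). The effects of the lines differed for KSR1 (1.03, limma adjusted p = 0.00232), but no difference was shown for HRAS (adjusted p = 0.341) or MAPK3 (adjusted p = 0.924). In the PI3K, AKT and mTOR list, RPTOR, a subunit of mTOR complex 1, was the 1 gene of 19 called in MOLM-13 (-0.53), where 3 were higher at an unadjusted limma p below 0.05 and limma-voom called 1 higher. In NB4, PIK3CG (-0.61) was called lower, and PDPK1 (0.61) and FOXO3 (0.58) were among 4 of 18 called higher.

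**Figure D4:**
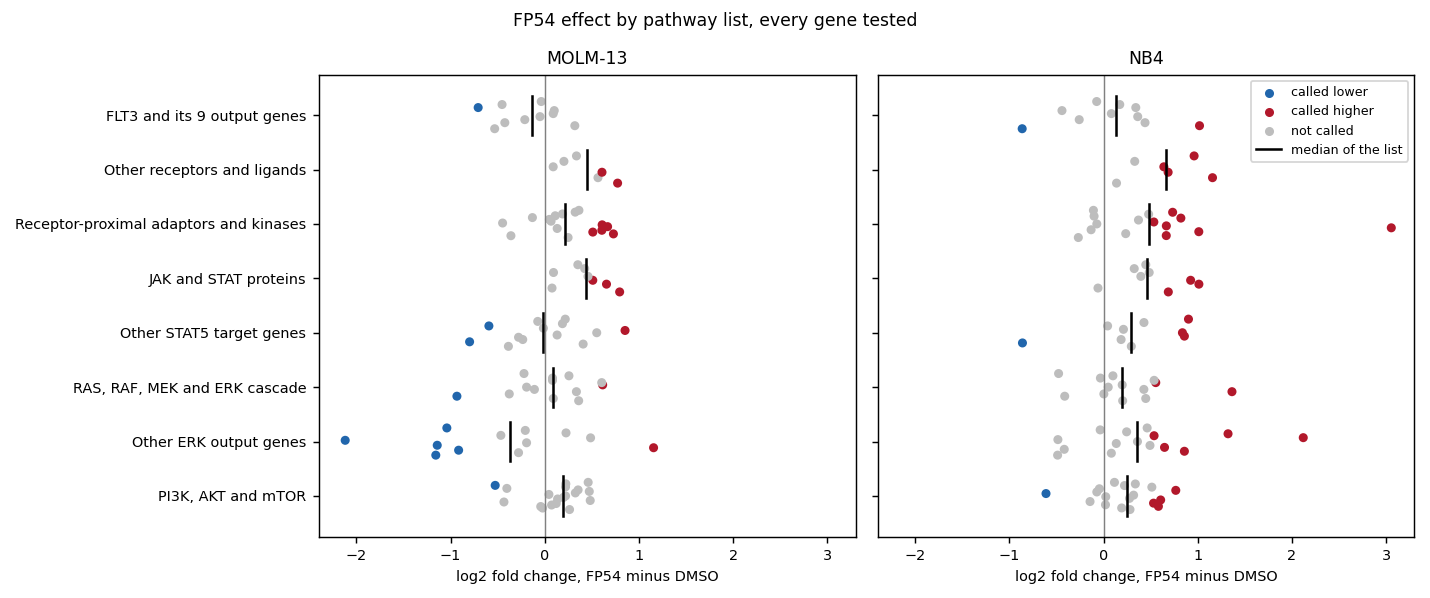
Log2 fold change with FP54 of every tested gene of the 10 genes and of 7 pathway lists in MOLM-13 (left) and NB4 (right), where blue points were called lower, red points higher, and the vertical bars are list medians. The median of the other ERK output genes is -0.37 in MOLM-13 and 0.36 in NB4.

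Markers of blood cell maturation moved with the treatment. The 14 monocytic markers summed to between 773 and 821 RPKM with DMSO and between 1107 and 1253 RPKM with FP54 in MOLM-13, where 6 of 9 tested were called higher and 1 lower. In NB4 they summed to between 74.5 and 75.5 RPKM and between 95.1 and 141 RPKM, with 5 of 10 called higher, 1 lower and CD163 at 0 with DMSO. FP54 replicate 1 of NB4 stood apart on the high side, with S100A9 at 26.5 RPKM against at most 4.35 RPKM in the other FP54 libraries and S100A8 at 3.92 against at most 0.258 RPKM. The 8 promyelocyte granule markers fell in NB4 from between 2173 and 2439 to between 1125 and 1193 RPKM. There 6 of 7 tested were called lower. In MOLM-13 their sums overlapped, but 3 of 8 tested were called lower and 1 higher. MPO fell in MOLM-13 from 16.1 to 3.79 RPKM (log2 fold change -2.06, limma adjusted p = 0.000985). RNASE3 (-1.08) and CTSG (-0.89) were also called lower there, and CFD higher (0.61). In NB4 the 8 stem and progenitor markers summed to between 15.1 and 18.0 RPKM with DMSO and between 31.5 and 34.6 RPKM with FP54, where GATA2 alone reached a mean of 1 RPKM and MECOM was at 0 with DMSO. The 6 T cell markers summed to between 6.14 and 7.17 and between 11.2 and 11.7 RPKM, where CD3D alone reached 1 RPKM and CD5 was at 0, and the 6 B cell markers to between 4.33 and 6.41 and between 7.53 and 7.83 RPKM. In MOLM-13 the stem and progenitor sums overlapped between treatments and the T cell sum stayed at or under 0.614. Of 3 stem and progenitor markers tested in MOLM-13, GATA2 was called lower (-0.66, limma adjusted p = 0.0439), and 2 were above 0 and not called. In NB4, GATA2 was called higher (0.95). The part of these shifts in the values of the 10 genes was not tested. The mean of 400 olfactory receptor genes, which leukemia cells should not express, was 0.0018 to 0.0039 RPKM with DMSO and 0.051 to 0.054 RPKM with FP54 in NB4, far under the level of each of the 10 genes. With it taken off every gene of a library, the log2 fold change of SOCS2 in NB4 was -0.49 and that of CISH was -0.89.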

How the data were processed

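The authors made the values: poly(A) RNA was selected, libraries were prepared with a stranded kit, reads were trimmed (Cutadapt 4.8), deduplicated, aligned to hg38 (STAR 2.7.11b; versions from the submitters' processing notes), counted on protein-coding genes (featureCounts 2.0.3) and deposited as RPKM. Of the 22 samples, the 12 mRNA-seq libraries were used and 10 were not analysed here. Column headers give treatment and replicate, and the cell line rests on the name of each table.

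In R 4.3.3, log2(RPKM + 0.1) was fitted with limma 3.58.1 (eBayes with an intensity trend) per line, for genes whose mean reached 1 RPKM. Fold changes are on that scale. The difference between the lines was an interaction term in 1 model of the 12 libraries, called at an adjusted p below 0.05. Read counts were recovered by multiplying RPKM by GENCODE exon lengths, known for 20304 of 20411 genes. Data handling used Python 3.11.15 (pandas 2.3.3, numpy 2.4.6) and plots used matplotlib 3.10.9. The tests were checked on simulated data.

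The 10 genes, the lists and the tests were chosen with earlier results of these data known. Named genes are the 10, up to 3 called lower and 3 called higher per list and line by size of change, the 5 with the profile nearest to FLT3, and FTO. Some genes that this rule names are not reported here. SPRY1, DUSP7, JAK2, STAT5B, MAPKAPK3, CBL, BTK, SYK, GATA2, MECOM, CD3D, CD5, S100A8, S100A9 and CD163 were named after their values were seen. Alternatives were other pseudocounts and filters, median-ratio and quantile scaling, eBayes without a trend, a replicate block, limma-voom, an adjusted p cutoff, leaving out each library and, added after seeing the data, subtraction of the olfactory receptor level.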

Additional observations from a re-analysis of the deposited data

Results flagged for a closer look

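The response to FP54 of 3 of the 10 genes differed between the 2 cell lines by the limma test of the difference itself. The log2 fold change in NB4 minus that in MOLM-13 was 0.70 for DUSP6, 1.05 for SPRED1 and 0.86 for ETV5. SPRED1 and ETV5 had opposite signs in the 2 lines, while DUSP6 was above 0 in both. No cause of these differences was tested.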

How the results depend on the processing

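In MOLM-13, 1 of the 10 genes was called lower, and this count was 0 with a pseudocount of 1, no filter, a filter at a mean RPKM of 5 or a replicate block, 2 with limma-voom and 0 to 2 when 1 library was left out. Of the pathway list genes in MOLM-13, 9 were called lower (3 with the filter at 5, 5 to 10 when a library was left out) and 13 higher (7 to 18). In NB4, the 1 gene of the 10 called lower became 0 with the filter at 5, 2 with median-ratio scaling, 2 with quantile normalization and 1 to 2 when a library was left out, and the 1 called higher became 1 to 2. NB4 pathway genes called lower numbered 2 (1 with no filter, 7 with median-ratio scaling, 6 with quantile normalization, 3 to 5 when a library was left out), and those called higher 27 (16 with the filter at 5, 15 with median-ratio scaling, 22 to 34). For the difference between the lines, 0 of the 10 genes were more negative in NB4, and 1 was with no filter, median-ratio scaling or quantile normalization; 3 were more positive, and 1 was with the filter at 5 and 1 to 3 when a library was left out. Pathway genes more positive in NB4 numbered 13 (20 with no filter, 4 with the filter at 5, 7 to 15), and more negative 2 (1 with the filter at 5, 5 with median-ratio scaling, 4 with quantile normalization, 0 with a replicate block, 0 to 4). The cause of these shifts was not tested, beyond the smaller number of genes tested with the filter at 5.

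Signs turned for values near 0. In MOLM-13, PIM1 was 0.012 with quantile normalization and ranged from -0.24 (FP54 replicate 3 left out) to 0.10 (FP54 replicate 2 left out), and STAT5A from -0.081 to 0.019 (FP54 replicate 2 or 3 left out). In NB4, median-ratio scaling gave -0.12 for PIM2 and -0.025 for SPRY2. With 1 replicate number left out of both lines, the difference between the lines ranged from -0.17 to 0.093 for FLT3, from -0.11 to 0.074 for PIM2 and from -0.082 to 0.025 for STAT5A.

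Median-ratio scaling moved the median of all genes in NB4 to -0.126, and the share of calls that were higher fell from 63.6% to 37.1%; it was 48.4% with quantile normalization. The replicate numbers did not pair the libraries, with correlations of deviations between -0.262 and 0.123 for libraries of the same number. In MOLM-13 some libraries of different number correlated more. The values were 0.593 for DMSO 1 with FP54 3, 0.494 for DMSO 2 with FP54 1 and 0.475 for DMSO 3 with FP54 2. The remaining MOLM-13 pairs of different number were at -0.27, -0.373 and -0.461. The main test did not model this structure, and its source was not tested. With 3 libraries a group, intervals of the low genes were wide, and values that missed the cutoff were not shown to be equal.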

Other observations

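The receptor and PIM1 held the same order of libraries within each MOLM-13 group, with replicate 1 highest and 2 lowest among the DMSO libraries for both genes and replicate 3 highest and 2 lowest among the FP54 libraries. Their SD over the DMSO libraries came to 22.0% of the mean for FLT3 and 21.7% for PIM1, the widest of the 10 genes in that group, against 1.12% for STAT5A and 2.13% for ETV5. Among receptor-proximal genes, 5 of 15 tested in both lines differed in their response to FP54, against 14.2% of all 8849 genes tested in both. Among them, CBL and SH2B3 were more positive in NB4, and BTK and SYK were more negative.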
